A study of Mus musculus with 20 samples.

Results

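The transcriptional response of resting bone marrow-derived dendritic cells (BMDCs) to BET inhibition was described by comparing iBET with DMSO in cells that had received ovalbumin (Ova) alone, without Fc receptor cross-linking. BMDCs of 5 mice (A to E) were grown from marrow for 8 days with GM-CSF at 40 ng/mL, and cells of each mouse were given Ova for 4 hours with either the BET inhibitor I-BET151 (iBET) at 3.3 μM or DMSO. This gave 5 DMSO Ova and 5 iBET Ova libraries, 10 of the 20 in the series. The other 10 were made from the same mice with Ova immune complexes (IC) and entered the fit and 1 comparison at the end. The labels name neither the strain nor the sex of these mice, and the methods list wild-type C57BL/6 mice and state that male and female mice were used. The labels give 5% DMSO for the control cells and no solvent content for the iBET cells, so iBET and a difference in solvent cannot be told apart. They also describe drug and Ova as added together, whereas the methods place the drug shortly before the stimulus.

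BET proteins, among them Brd2, Brd3 and the testis protein Brdt, bind acetylated lysines of histones through paired bromodomains and bring the elongation kinase P-TEFb to promoters and enhancers. I-BET151 occupies the bromodomain pocket and displaces them from chromatin. P-TEFb is held inactive in a complex with the 7SK RNA and Hexim proteins, from which it is released when transcription is disturbed. In dendritic cells and macrophages, genes of inflammation and of cell identity are known to depend on enhancers rich in BET proteins.

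The DMSO Ova libraries held between 16447491 and 26940397 counts (median 19753544) and the iBET Ova libraries between 16485258 and 25285129 (median 21592427). Of 24421 genes listed, 12465 passed the filter on low counts. Levels below are TMM-normalised shares of each library (CPM), given as mean ± SD over n = 5 mice, and they are not corrected for gene length. Log2 fold changes are iBET over DMSO from edgeR's quasi-likelihood test with the mouse as a block, and a gene was called at a Benjamini-Hochberg adjusted p under 0.05. The ribosomal RNA gene Rn45s took 5.04 ± 1.85% of the counts with DMSO and 5.49 ± 1.56% with iBET, a difference smaller than the spread between mice (0.45 percentage points, exact permutation test over mice, two-sided p = 0.562). With 1 mouse left out this difference ranged from 0.11 (without mouse E) to 0.862 (without mouse B). CPM are shares of a library, so fewer cells of a type and less RNA per cell cannot be told apart.

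The cells carried the markers of GM-CSF cultures, which hold dendritic cells and macrophages side by side. The labels describe cells sorted into lysis buffer and the methods cells lysed in culture, so whether a sort shaped the mixture is not known. Itgax (CD11c) stood at 1962 ± 187 CPM with DMSO and 2108 ± 349 CPM with iBET and did not pass the test (log2 fold change 0.09, standard error 0.0482, edgeR adjusted p = 0.0971). Summed over the 17 dendritic cell markers, levels lay between 6590 and 11500 CPM with DMSO and between 6210 and 10300 CPM with iBET, and 12 of the 16 tested were lower with iBET and 1 was higher (6 and 0 without the mouse block), against 35.2% and 33.5% of all genes. The 14 macrophage and monocyte markers summed to 11700 to 19800 CPM and 13800 to 21300 CPM, with 8 lower and 2 higher (6 and 1 without the block). Traces of other lineages were present. Plasmacytoid dendritic cell markers summed to 74.3 to 104 CPM with DMSO and 57 to 71 CPM with iBET, with 5 of the 5 tested called lower (2 without the block). Erythroid and megakaryocyte markers lay between 48.7 and 114 CPM and between 54.6 and 109 CPM, mast cell and basophil markers between 18.4 and 50.4 CPM and between 13.9 and 37.9 CPM, and stromal and endothelial markers between 9.42 and 19.3 CPM and between 3.69 and 8.48 CPM. Of the defining genes of these and of T and NK cells, Siglech, Alas2, Mcpt4, Col1a2, Col3a1, Ncr1 and Gzma had no count in the 10 libraries, and the 6 B cell markers summed to at most 0.542 CPM. Eosinophil markers were present at 96.1 to 242 CPM with DMSO and 60.9 to 154 CPM with iBET, lower in 5 of 5 mice, with 6 of the 9 tested called lower (4 without the block). Neutrophil and granule markers summed to 526 to 921 CPM and 482 to 833 CPM. The summed T and NK markers lay between 122 and 166 CPM with DMSO and between 14.5 and 29.4 CPM with iBET, of which Il7r, the only one tested, held most (143 ± 18.3 CPM with DMSO and 21.1 ± 6.74 CPM with iBET). The part of a change in cell mixture in the results below was not tested.

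With iBET, 4175 genes were higher and 4385 were lower, together 68.7% of the genes tested (33.5% higher and 35.2% lower). With TMM scaling the 2 directions were alike in number but not in size. At 2-fold or more there were 620 higher genes (4.97%) and 1285 lower genes (10.3%), at 4-fold or more 124 and 406, and at 16-fold or more 12 and 34. The median called gene was higher by 0.46 or lower by 0.61 on the log2 scale, and the median over all genes tested was -0.0026. Most changes were thus small, with 5% of genes below -1.63 and 5% above 1.00. Of the 8560 called genes, 7464 (87.2%) moved the same way in 5 of 5 mice, and for 38.0% of all genes tested the 5 DMSO and 5 iBET libraries did not overlap.

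Changes of 2-fold or more were most frequent at low levels. Among the 1691 genes with a mean of up to 2 CPM, 12.8% rose and 22.6% fell by at least 2-fold, and among the 3812 genes between 32 and 128 CPM 2.23% and 5.69%. The 221 genes above 512 CPM were the only class of level in which rises outnumbered falls at this size (4.07% and 1.36%), and 43.9% of them rose and 19.5% fell at any size. Within mice A and B alone, which lay apart from mice C, D and E on the second principal component (14.9% of the variance), 3177 genes were higher and 3221 lower, and in mice C to E alone 4184 and 3783. Without the mouse block the numbers were 3449 and 3608, and 7056 of these 7057 genes were also called with it.

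**Figure D1:**
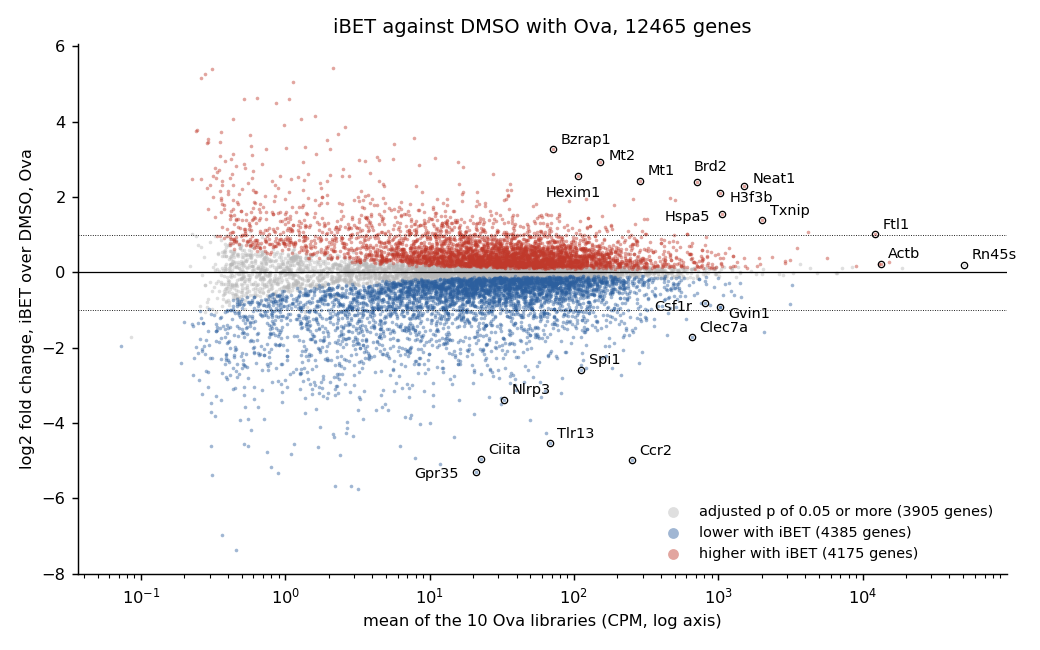
Log2 fold change of iBET over DMSO with Ova (vertical axis) against the mean level of the 10 Ova libraries (horizontal axis, CPM, log scale) for the 12465 genes tested; red, blue and grey points are genes called higher, called lower and not called, circled genes are named, and dotted lines mark a 2-fold change. The cloud reaches further down than up at levels above 10 CPM, where Ccr2, Tlr13 and Ciita lie below -4.

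The 15 largest falls among genes with a mean of at least 5 CPM that fell in every mouse were those of Gpr35, Ceacam15, Ccr2, Ciita, Galnt9, Tnfsf8, Tlr13, Ptpro, Sla, Fpr1, Gpr183, Pdcd1lg2, the long noncoding RNA AU022793, Cd180 and Piwil2, with log2 fold changes from -5.30 to -3.77. Many of these encode receptors of leukocytes, among them Gpr35, Ccr2, Tlr13, Fpr1, Gpr183 and Cd180. The 15 largest rises included those of Hspa1a, Bzrap1, Hspa1b, Neto2, Mt2, Id1, Lgr4, Ahi1, Abhd15, Hexim1, Mt1, Brd2, Cd320 and Chac1, from 3.41 to 2.34. Chaperone, metallothionein and transcription genes stand among them. For each of these 30 genes the DMSO and iBET libraries did not overlap, against 38.0% of all genes tested, a count that the rule of naming favours and that carries no test.

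The response of BET genes differed in size. Brd2 (chromosome 17, 34112023 to 34122634 in GRCm38), the BET protein whose own gene is a known sensor of BET inhibition, had 203, 206, 246, 245 and 249 CPM with DMSO and 1222, 1283, 1230.2, 1099 and 1189 CPM with iBET in mice A to E. Every iBET library stood above every DMSO library, and Brd2 rose 5.25-fold (log2 fold change 2.39, standard error 0.0679, edgeR adjusted p = 2.48e-15), by 2.61 in mice A and B alone and 2.29 in the other 3. Brd3 was at 29.6 ± 2.88 CPM with DMSO and 34.3 ± 2.96 CPM with iBET, a small rise (log2 fold change 0.22, adjusted p = 0.00109), and Brdt, at under 1 CPM in both groups, also passed (log2 fold change 1.31, adjusted p = 0.000107).

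Of 23 tested genes of P-TEFb, the 7SK complex and elongation factors, 16 rose and 4 fell (median log2 fold change 0.28). Hexim1 (chromosome 11, 103116231 to 103119725), the inhibitor of P-TEFb, had 32.99, 33.4, 26.8, 32.3 and 28.2 CPM with DMSO and 155, 189, 186, 197 and 185 CPM with iBET. It rose 5.92-fold without overlap (log2 fold change 2.57, standard error 0.0693, edgeR adjusted p = 1.60e-15), with 2.36 in mice A and B and 2.75 in mice C, D and E. Mepce, which caps the 7SK RNA, rose from 33.8 ± 3.73 to 58.00 ± 2.17 CPM. The elongation factors Eaf1, Ell2 and Aff4 rose by 0.70, 0.70 and 0.57 on the log2 scale. Below 2 CPM, Eaf2 rose by 3.29 and Hexim2, the paralogue of Hexim1, fell by 1.80 on the log2 scale (edgeR adjusted p = 6.03e-10 and 1.62e-08), a pair chosen after their values were seen. Aff1, a scaffold of the same complexes, was at 194 ± 32.1 CPM with DMSO and 181 ± 11.6 CPM with iBET and was not called (adjusted p = 0.322). Polr2a, the large subunit of RNA polymerase II, had 71.00, 157, 225, 219 and 161 CPM with DMSO and 506, 524, 517, 525 and 163 CPM with iBET. The iBET library of mouse E stood at the level of its DMSO library and the other mice rose (log2 fold change 1.43, adjusted p = 0.00294, and 1.64 without mouse E). Transcripts over 10 kb were lower in this library and in the DMSO library of mouse A than in the rest of their groups (median deviations -0.15 and -0.29 on the log2 scale), and higher in the iBET library of mouse B (0.19), whose part in these values was not tested.

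Most histone genes rose. The transcripts of replication-dependent histone genes as a rule lack a poly(A) tail. Of 67 such genes tested, 55 rose and 0 fell (median 0.60), against 33.5% and 35.2% of all genes. Without the mouse block 44 rose and 0 fell. They took 1.15 ± 0.144% of the counts with DMSO and 1.79 ± 0.431% with iBET, higher in 5 of 5 mice (exact permutation test over mice, two-sided p = 0.0625, the smallest that 5 pairs allow). Gene by gene the rise was less even. For 19 of the 67 genes the DMSO and iBET libraries did not overlap, against 38.0% of all genes tested. The direction was the same in 5 of 5 mice for 36 of the 67, against 7790 of all 12465. Hist1h2bc rose from 187 ± 10.1 to 737 ± 84.7 CPM and Hist3h2a from 41.1 ± 6.88 to 117 ± 20.7 CPM. Hist2h2aa1 and Hist2h2aa2, copies of 1 histone H2A gene, were both called (0.60 each), and how reads that fit several such copies were counted is not given in the sources used here.

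Histone variants that are made throughout the cell cycle rose as well, 8 of 9, with 1 lower. H3f3b (chromosome 11, 116021912 to 116027962), 1 of the genes for the variant H3.3, had 411, 352, 388, 381 and 411 CPM with DMSO and 1472, 1687, 1781, 1658 and 1812 CPM with iBET. The groups were far apart, with a 4.31-fold rise (log2 fold change 2.11, standard error 0.0617, edgeR adjusted p = 3.59e-15). H3f3a, which encodes the same protein, rose by less, from 387 ± 49.4 to 539 ± 25.6 CPM. The linker histone gene H1f0 rose from 85.7 ± 16.3 to 295 ± 35.5 CPM and H2afx, the variant phosphorylated at DNA breaks, from 81.4 ± 11.4 to 230.3 ± 47.98 CPM. H2afy (macroH2A) was lower by a small amount with the block (log2 fold change -0.11, adjusted p = 0.0265) and was not called without it (edgeR adjusted p = 0.357). Core proliferation genes did not follow the histones, with 23 of 46 tested lower and 10 higher (18 and 4 without the block, median -0.18). E2f2, an activator of S phase genes, fell from 37.7 ± 6.30 to 8.96 ± 0.713 CPM and the spindle checkpoint kinase gene Bub1b from 53.2 ± 5.41 to 26.5 ± 1.71 CPM, whereas Pcna, the sliding clamp, rose from 129 ± 20.96 to 175 ± 13.9 CPM. Mki67 was at 197 ± 12.2 CPM with DMSO and 167 ± 24.2 CPM with iBET, called with the block only (adjusted p = 0.0057 with it and 0.0571 without).

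**Figure D2:**
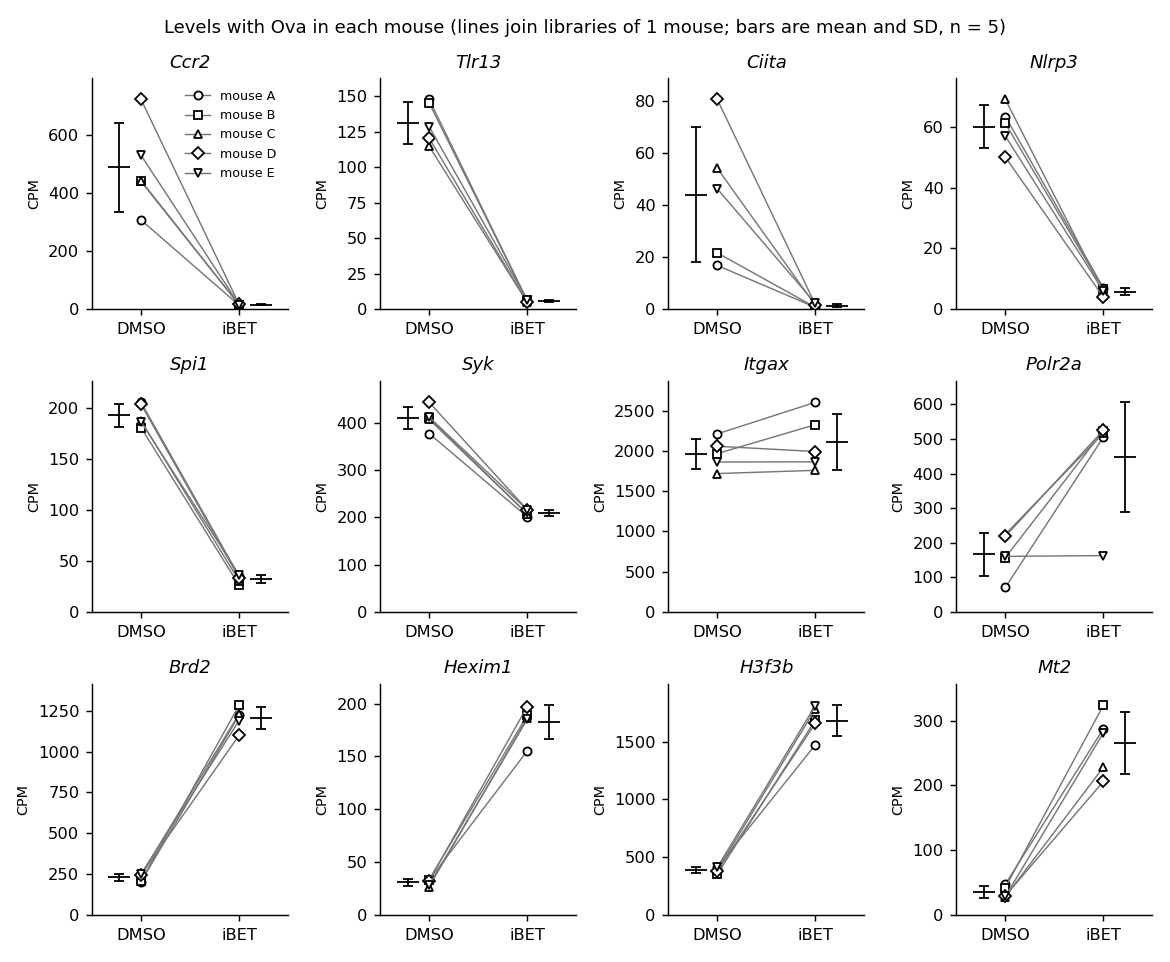
Levels of 12 genes (vertical axes, CPM from 0) with DMSO and with iBET in the Ova libraries of each mouse; each marker shape is a mouse, lines join libraries of 1 mouse, and bars are mean and SD (n = 5). Ccr2, Tlr13, Ciita, Nlrp3, Spi1 and Syk fell in every mouse, the groups of Itgax and Polr2a overlapped, and Brd2, Hexim1, H3f3b and Mt2 rose in every mouse.

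Stress and folding genes rose as well. Of 29 tested cytosolic chaperone genes of the heat shock response, 23 rose and 2 fell (median 0.38). The inducible Hsp70 genes Hspa1a and Hspa1b rose from 0.867 ± 0.457 to 10.5 ± 8.48 CPM and from 2.36 ± 0.376 to 19.3 ± 4.52 CPM. Hspa1a varied between mice, at 1.59, 0.711, 0.612, 1.02 and 0.410 CPM with DMSO and 5.57, 12.1, 24.7, 5.45 and 4.81 CPM with iBET, where mouse C stood above the others with iBET. This pair is nearly identical in sequence, and the split of reads between them is uncertain. Hspa2 rose from 3.33 ± 0.780 to 14.4 ± 1.02 CPM, and Hsp90aa1 and the constitutive Hspa8 rose 2.03-fold and 1.31-fold.

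In the endoplasmic reticulum, 21 of 26 tested folding and unfolded protein response genes rose and 3 fell (median 0.39). Hspa5, the luminal Hsp70 known as BiP, had 635, 584, 464, 456 and 568 CPM with DMSO and 1663, 1802, 1555, 1314 and 1564 CPM with iBET, without overlap (log2 fold change 1.55, standard error 0.0687, edgeR adjusted p = 7.49e-13). The calcium-binding lectin gene Calr rose from 564 ± 111 to 1070.4 ± 85.7 CPM and the sensor gene Atf6 from 88.7 ± 6.23 to 156 ± 15.8 CPM. Of 20 tested targets of ATF4, which responds to amino acid shortage and folding stress, 10 rose and 6 fell. These shares were 50% and 30%, against 33.5% and 35.2% of all genes. Chac1, which degrades glutathione, rose from 11.4 ± 3.56 to 60.3 ± 20.02 CPM, while Slc7a11, the cystine importer, fell from 483 ± 123 to 114 ± 40.2 CPM (log2 fold change -2.11, adjusted p = 2.55e-10). The 2 genes thus moved in opposite directions within 1 target list.

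The metallothioneins Mt2 and Mt1, small proteins that bind zinc and copper, rose 7.65-fold (from 35.2 ± 9.14 to 266 ± 47.6 CPM) and 5.396-fold (from 90.7 ± 20.9 to 485 ± 74.6 CPM). Of 25 tested targets of the antioxidant factor NRF2, 12 rose and 5 fell (10 and 3 without the block), 48% and 20% against 33.5% and 35.2% of all genes. Gclc, the rate-limiting enzyme of glutathione synthesis, rose from 30.3 ± 2.11 to 85.1 ± 4.81 CPM, Txnrd1 from 179.7 ± 25.1 to 339 ± 24.4 CPM and the ferritin light chain gene Ftl1 from 8274 ± 2476 to 16290.4 ± 2703 CPM. Hmox1 was at 96.2 ± 23.4 CPM with DMSO and 130.4 ± 10.6 CPM with iBET (log2 fold change 0.45, adjusted p = 0.00565), with overlapping groups. Sat1, which starts the breakdown of polyamines, rose from 213 ± 36.8 to 794 ± 82.7 CPM, and Txnip, the arrestin that restrains glucose uptake and binds thioredoxin, rose from 1127 ± 91.7 to 2919.7 ± 187 CPM (log2 fold change 1.38, standard error 0.0614, edgeR adjusted p = 7.89e-13).

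Of 37 tested autophagy genes 24 rose and 3 fell, against 33.5% and 35.2% of all genes, and the largest rise was 1.28 on the log2 scale. Ulk1, the kinase that starts the process, rose from 27.7 ± 6.51 to 67.2 ± 9.35 CPM, and the cargo receptor gene Sqstm1 was not called (log2 fold change -0.04, adjusted p = 0.564). HIF-1 targets rose in 13 of 22 cases, with 1 lower, and Ero1l, an oxidase of the endoplasmic reticulum, went from 199 ± 48.5 to 351 ± 103 CPM. Among glycolysis genes the directions were mixed, 9 higher and 8 lower of 26 (7 and 5 without the block), near the shares of all genes. Pfkl, Slc16a1 (a lactate transporter) and Pkm rose by 1.17, 1.36 and 0.37 on the log2 scale, while Pfkfb3 and the myeloid hexokinase Hk3 fell by 1.11 and 1.01. Sterol and fatty acid synthesis genes were higher in 17 of 37 cases and lower in 11 (16 and 6 without the block), 45.9% and 29.7% against 33.5% and 35.2% of all genes, with Sqle, an oxygenase of cholesterol synthesis, from 41.8 ± 6.52 to 93.7 ± 11.3 CPM.

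Of the nuclear long noncoding RNAs, Neat1 and Malat1 rose. Neat1, the scaffold of paraspeckles, went from 541 ± 238 to 2476 ± 605 CPM (log2 fold change 2.28, standard error 0.218, edgeR adjusted p = 3.08e-08), and Malat1 from 2701 ± 925 to 5629 ± 2149 CPM (log2 fold change 1.06, adjusted p = 6.07e-07). For both, the groups did not overlap. Of the 24 tested host and nuclear noncoding RNAs of the list, 10 rose and 1 fell (41.7% rose, against 33.5% of all genes). Over the 337 tested genes annotated as long noncoding RNAs the split was the other way, with 22% higher and 32% lower, and 4.45% and 17.8% at 2-fold or more.

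Factors, receptors and signalling proteins of myeloid cells were prominent among the falls. Of 31 tested transcription factors of the myeloid and dendritic lineages, 26 fell and 5 rose (median -0.85). Spi1 (chromosome 2, 91082390 to 91115756), which encodes PU.1, the master regulator of myeloid cells, had 206, 181, 188, 204 and 186 CPM with DMSO and 35.1, 26.2, 30.5, 33.4 and 36.5 CPM with iBET. The groups were far apart and Spi1 fell 5.98-fold (log2 fold change -2.58, standard error 0.0625, edgeR adjusted p = 4.87e-16), by 2.66 in mice A and B and 2.48 in mice C, D and E. Irf8 and Irf4, which direct the dendritic cell subsets, fell by less, from 272 ± 91.4 to 169.9 ± 57.1 CPM and from 292 ± 73.9 to 163 ± 29.6 CPM. Irf8 was called with the mouse block only (edgeR adjusted p = 0.0587 without it). Batf3, required for cross-presenting dendritic cells, fell from 18.7 ± 9.04 to 5.57 ± 2.68 CPM, and the sterol receptor gene Nr1h3 from 4.88 ± 1.62 to 1.17 ± 0.293 CPM. Stat6 and Stat4, which carry cytokine signals to the nucleus, fell 1.95-fold and 5.60-fold, and Socs3, a feedback inhibitor of Janus kinases, rose from 33.9 ± 16.7 to 87.2 ± 40.1 CPM.

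Toll-like receptors (TLRs) and their adaptors, which detect microbial products, had 18 of 23 tested members lower and 0 higher (median -1.69). Tlr13 (chromosome X, 106143204 to 106160493), a receptor for bacterial ribosomal RNA, had 148, 145, 115, 120.3 and 128 CPM with DMSO and 6.06, 6.13, 4.84, 4.91 and 6.36 CPM with iBET. It fell 23.1-fold without overlap (log2 fold change -4.53, standard error 0.0703, edgeR adjusted p = 1.16e-18), by 4.59 and 4.44 in the 2 sets of mice. The endosomal receptors Tlr7, Tlr8 and Tlr9 fell 8.72-fold, 7.46-fold and 4.85-fold, and Tlr4, the receptor for lipopolysaccharide, fell from 351 ± 81.4 to 83.98 ± 17.6 CPM. Unc93b1, the chaperone that carries endosomal TLRs, was at 523 ± 71.7 CPM with DMSO and 511 ± 51.2 CPM with iBET and was not called (log2 fold change -0.03, adjusted p = 0.663).

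Of 17 tested inflammasome components, 11 fell and 1 rose. Nlrp3, the sensor of membrane damage, had 63.4, 61.2, 69.1, 50.05 and 56.99 CPM with DMSO and 6.95, 6.51, 5.66, 3.92 and 5.90 CPM with iBET. Every mouse fell to under 7 CPM, a 10.4-fold fall (log2 fold change -3.38, standard error 0.0921, edgeR adjusted p = 1.71e-15). Nlrp1a and Nlrp1b fell 6.39-fold and 5.44-fold, whereas Nek7, the kinase that activates Nlrp3, was not called (log2 fold change -0.05, adjusted p = 0.427). Proximal Fc receptor signalling genes followed the same direction, 16 of 20 lower and 2 higher. Syk, the kinase that docks on the receptor chain, fell from 409.8 ± 23.4 to 209.7 ± 6.42 CPM, and the Src family kinase gene Fgr from 114 ± 6.26 to 12.9 ± 1.48 CPM. The adaptors Blnk and Lat2 fell 5.46-fold and 3.66-fold.

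Chemoattractant receptors had the largest median fall of the lists described here with more than 1 gene tested, -2.24 on the log2 scale, with 21 of 22 tested members lower and 0 higher. Another 17 of the list were in the table and did not pass the filter on low counts. Ccr2 (chromosome 9, 124101950 to 124113557), which draws monocytes out of the marrow, had 306, 439, 442, 721 and 529 CPM with DMSO and 13.3, 15.2, 14.5, 16.2 and 15.7 CPM with iBET. The DMSO values varied by more than 2-fold between mice and the iBET values were nearly level, a 31.5-fold fall (log2 fold change -4.98, standard error 0.179, edgeR adjusted p = 3.73e-14). Fpr1, a receptor for formylated bacterial peptides, fell from 16.2 ± 6.57 to 1.00 ± 0.119 CPM and the oxysterol receptor gene Gpr183 from 19.01 ± 2.07 to 1.20 ± 0.345 CPM. Gpr35, a G protein-coupled receptor outside the list, fell from 40.99 ± 11.3 to 1.01 ± 0.492 CPM (log2 fold change -5.30, standard error 0.147, edgeR adjusted p = 1.97e-15). Receptors for nucleotides fell in the same way, 13 of 16 lower and 2 higher, with P2ry13, P2ry14 and P2ry6 lower by 9.59-fold, 7.47-fold and 6.07-fold.

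**Figure D3:**
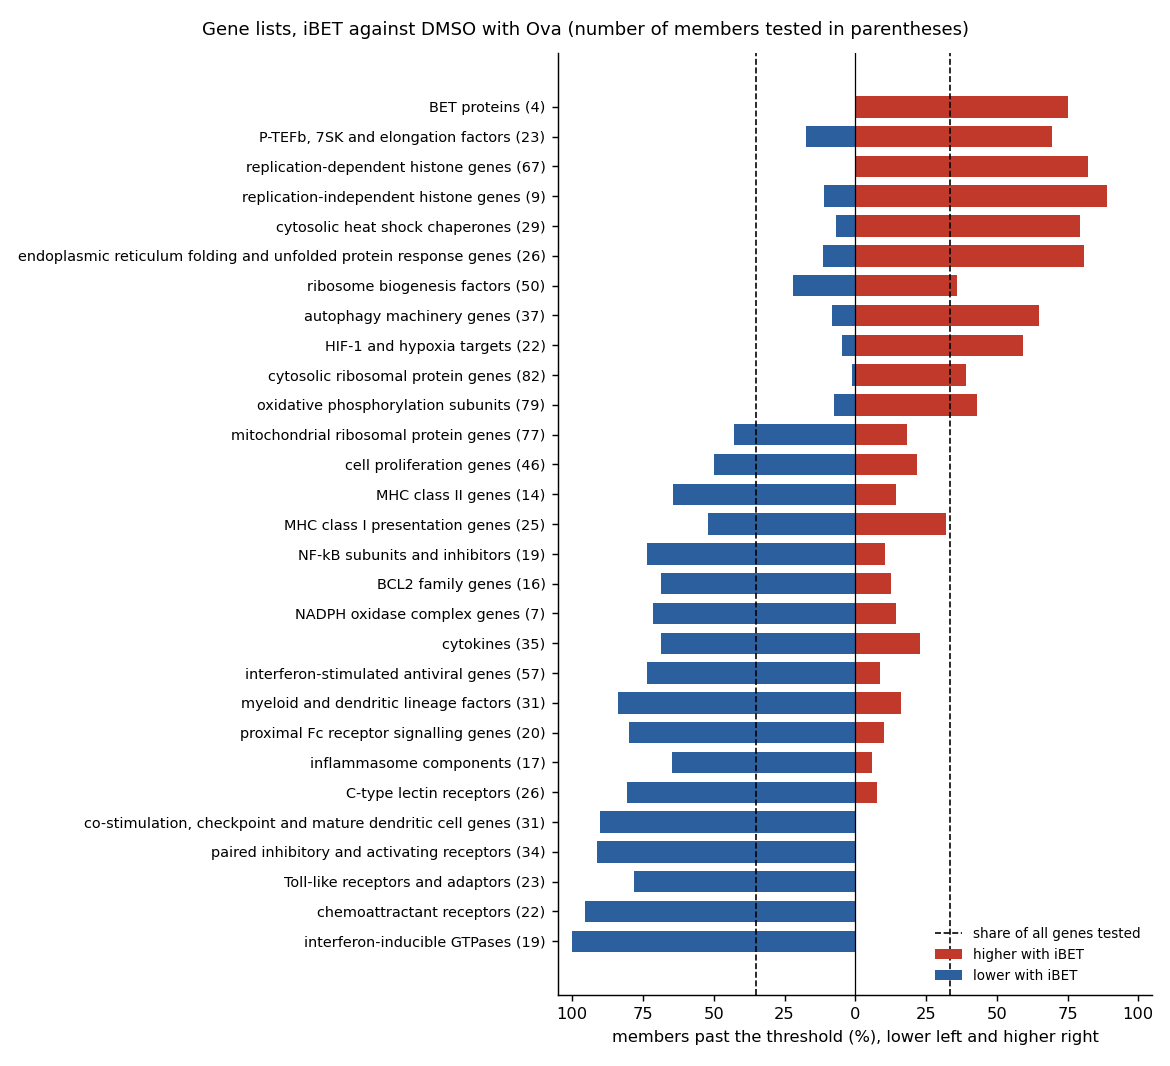
Share of the tested members of 29 gene lists that were called lower (bars to the left) or higher (bars to the right) with iBET (horizontal axis, %); dashed lines are the shares of all 12465 genes, 35.2% lower and 33.5% higher, and the number of members tested stands in parentheses. Receptor, interferon and co-stimulation lists lie almost wholly to the left, and histone and chaperone lists to the right.

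Of 35 tested cytokines, 24 fell and 8 rose (21 and 4 without the block, median -1.02). Il6 was at 5.03 ± 1.16 CPM with DMSO and 0.556 ± 0.214 CPM with iBET and Il12b at 7.90 ± 2.41 CPM with DMSO and 1.28 ± 0.530 CPM with iBET, both called lower (-3.19 and -2.61). Il1b fell from 9.98 ± 3.64 to 3.73 ± 0.816 CPM. Tnf went the other way, from 9.22 ± 4.27 to 14.9 ± 5.68 CPM, with overlapping groups, and was called higher with the mouse block only (adjusted p = 0.00489 with it and 0.0795 without). Each of these cytokine genes stood below 20 CPM in the absence of IC. The TNF family ligand genes Tnfsf8 and Tnfsf4 fell 24.5-fold and 7.74-fold. Among chemokine ligands 11 of 22 fell and 2 rose (7 and 1 without the block), 50% and 9.09% against 35.2% and 33.5% of all genes. Cxcl16 was lower, from 259 ± 34.3 to 66.7 ± 8.496 CPM, and Ccl6 was not called (log2 fold change -0.03, adjusted p = 0.686). Cytokine receptors fell in 25 of 40 cases and rose in 8 (23 and 5 without the block). Csf2rb, the signalling chain of the receptor for the GM-CSF in the medium, rose from 2713 ± 67.6 to 4282 ± 212 CPM (log2 fold change 0.66, adjusted p = 2.25e-07), and Csf1r fell from 1032 ± 162 to 582 ± 75.8 CPM.

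Genes known as targets of interferon were lower. All 19 tested interferon-inducible GTPases, which attack vacuoles of intracellular microbes, fell (median -2.08), and 17 of them had groups without overlap, against 38.0% of all genes. Gbp3 and Gbp6 fell 6.72-fold and 7.85-fold, and Gvin1 fell from 1340.1 ± 315 to 701 ± 37.7 CPM. These genes lie in clusters of similar copies, so the split between members is uncertain. Of 57 tested antiviral genes, 42 fell and 5 rose (40 and 1 without the block, median -1.04). Samd9l fell from 71.7 ± 7.15 to 16.6 ± 2.95 CPM and Usp18, a brake on interferon signalling, from 16.2 ± 3.67 to 3.18 ± 0.702 CPM. Irf7, a factor of the interferon response, was not called (log2 fold change 0.18, adjusted p = 0.493). Slfn2 was not called either (log2 fold change 0.12, adjusted p = 0.0877).

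In antigen presentation the regulator fell by far more than the genes it controls. Ciita (chromosome 16, 10480059 to 10528418), the activator on which MHC class II transcription depends, had 16.8, 21.6, 54.1, 80.5 and 46.2 CPM with DMSO and 0.687, 0.705, 1.46, 1.76 and 2.22 CPM with iBET. Mice A and B had less of it than the others under either condition, and the fall was 31.1-fold (log2 fold change -4.96, standard error 0.139, edgeR adjusted p = 2.17e-15), by 4.76 among those 2 and 4.97 among the other 3. The MHC class II chain gene H2-Aa was at 446 ± 175 CPM with DMSO and 396 ± 150.4 CPM with iBET, called lower with the block (log2 fold change -0.17, adjusted p = 0.00825) and not without it (edgeR adjusted p = 0.696). Cd74, the invariant chain, was at 2661 ± 735 CPM with DMSO and 3169 ± 988 CPM with iBET, called higher with the block only (adjusted p = 0.000574 with it and 0.429 without). H2-DMb1, which loads peptides, fell from 114 ± 18.1 to 56.9 ± 8.88 CPM. Of the 14 class II genes 9 were lower and 2 higher, and of 25 class I genes 13 and 8 (5 and 1, and 8 and 6, without the block). B2m was not called (log2 fold change 0.14, adjusted p = 0.0676), H2-D1 rose from 945 ± 128 to 1229.6 ± 164 CPM and the peptide transporter gene Tap2 fell from 84.7 ± 4.08 to 39.5 ± 4.196 CPM.

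Co-stimulation, checkpoint and mature dendritic cell genes were lower in 28 of 31 cases and higher in 0 (21 and 0 without the block). Pdcd1lg2, a ligand of PD-1, fell from 93.8 ± 31.5 to 6.16 ± 1.90 CPM (log2 fold change -3.91, standard error 0.0901, edgeR adjusted p = 2.38e-16), and Cd200r1, an inhibitory receptor, from 314 ± 62.9 to 53.7 ± 10.8 CPM. Ccl22, a chemokine of mature dendritic cells, fell from 1133 ± 629.6 to 618 ± 333 CPM with wide overlap and was called with the block only (edgeR adjusted p = 0.165 without it). Of the paired immunoglobulin-like receptors 31 of 34 fell and 0 rose, with Cd300lb lower by 7.05-fold and Lair1 by 4.22-fold. C-type lectins fell in 21 of 26 cases and rose in 2. Clec7a, the receptor for fungal glucans, fell from 1016 ± 276 to 306 ± 46.4 CPM, and Clec4n, another fungal receptor, from 1745 ± 508 to 1121 ± 354 CPM.

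**Figure D4:**
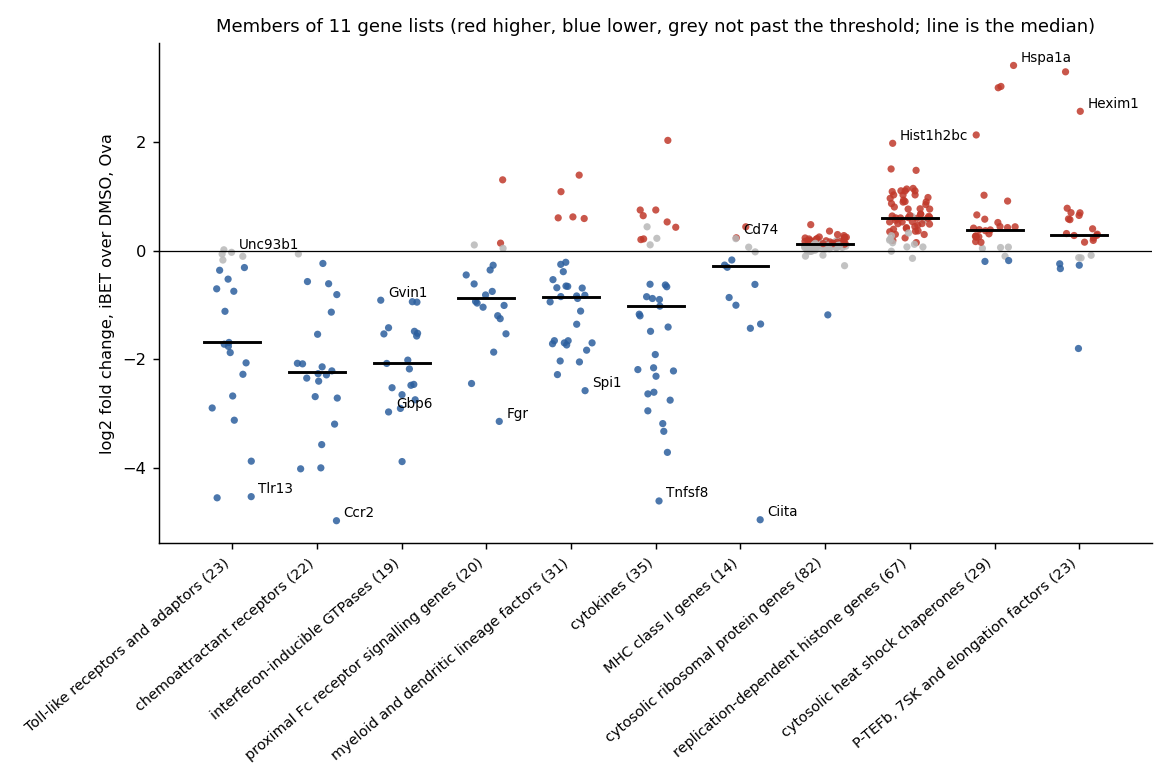
Log2 fold change of iBET over DMSO with Ova (vertical axis) for each tested member of 11 gene lists (horizontal axis, number of members in parentheses); red and blue points were called higher and lower, grey points were not called, and black lines are medians. In the receptor lists the points spread from near 0 to below -4, and the ribosomal protein genes lie close to 0.

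Of 7 tested genes of the NADPH oxidase complex, which makes the oxidative burst, 5 fell and 1 rose (5 and 0 without the block). Ncf1 fell from 668 ± 104 to 209 ± 19.8 CPM and Ncf4 from 50.5 ± 11.5 to 24.5 ± 3.65 CPM, and the proton channel gene Hvcn1 from 296 ± 89.7 to 80.1 ± 19.4 CPM. Its membrane subunits differed from these, as Cyba was not called (log2 fold change 0.06, adjusted p = 0.494) and Cybb was called higher with the block (log2 fold change 0.18, adjusted p = 0.00912) and not without it (edgeR adjusted p = 0.453). Of 50 actin cytoskeleton genes 22 fell and 13 rose (17 and 8 without the block), 44% and 26% against 35.2% and 33.5% of all genes, and their median was -0.07. Fmnl1, Evl and Myo1g, which shape the actin cortex of leukocytes, fell 3.34-fold, 5.78-fold and 3.00-fold, whereas Actb was at 12261 ± 996 CPM with DMSO and 14367 ± 1842 CPM with iBET (log2 fold change 0.22, adjusted p = 0.000648, and 0.0521 without the block). Fscn1, the actin bundler of mature dendritic cells, fell from 268 ± 175 to 63.1 ± 45.8 CPM, with overlapping groups. Selplg, a ligand of selectins, fell from 338 ± 40.2 to 121 ± 20.04 CPM, and the integrin gene Itgb2 was called higher with the block only (0.16, edgeR adjusted p = 0.00574 with it and 0.469 without).

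Other families of secreted and surface proteins were mixed. Of 29 tested semaphorins, plexins, neuropilins and Notch genes 15 fell and 6 rose, 4 of these by 2-fold or more. Sema4d and Sema4a, semaphorins that act between immune cells, fell 5.04-fold and 2.90-fold. Of 18 coagulation and fibrinolysis genes 11 fell and 3 rose (8 and 1 without the block). Serpinb2, an inhibitor of urokinase, fell from 65.7 ± 25.7 to 10.3 ± 4.71 CPM, and the coagulation factor gene F10 from 403 ± 91.02 to 169 ± 31.5 CPM. Thbs1, a matrix protein that activates TGF-beta, fell from 3139.5 ± 1563 to 1038 ± 534 CPM, with overlapping groups and, like Fscn1, a wide spread among DMSO libraries. Of 29 ADAM and MMP metalloproteases 11 fell and 7 rose (8 and 3 without the block), 37.9% and 24.1%. Mmp14, a membrane-bound collagenase, fell from 132 ± 37.3 to 46.8 ± 14.3 CPM, and the elastase gene Mmp12 was not called (log2 fold change 0.11, adjusted p = 0.18). Of 14 genes of itaconate and arginine metabolism 5 fell and 6 rose, 35.7% and 42.9% against 35.2% and 33.5% of all genes. By 2-fold or more 4 fell and 2 rose. Arg1 and Slc7a2, which break down and import arginine, fell 3.15-fold and 2.37-fold, and Irg1, the itaconate synthase, fell from 16.3 ± 7.63 to 3.55 ± 0.942 CPM. Of 16 genes of the BCL2 family, which set the threshold for apoptosis, 11 fell and 2 rose. Bmf, which promotes death, fell 2.89-fold, as did the survival genes Bcl2a1a, Bcl2a1b and Bcl2a1d, copies of 1 gene, by 2.59-fold, 2.45-fold and 2.66-fold, and Mcl1 was at 560.1 ± 29.98 CPM with DMSO and 509.6 ± 29.1 CPM with iBET, called with the block only (adjusted p = 0.00685 with it and 0.0526 without).

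Of 10 tested Egr, Nr4a and related early response genes 6 rose and 2 fell, 60% and 20% against 33.5% and 35.2% of all genes. Of 22 tested AP-1 and ATF transcription factors 10 rose and 8 fell (45.5% and 36.4%). Ier3, Ier2 and Egr1, which are induced within minutes of a stimulus, rose 3.82-fold, 2.87-fold and 2.24-fold. Egr2 and the ATF factor gene Atf3 fell 2.26-fold and 2.87-fold. NF-kB subunits and inhibitors were mostly lower, 14 of 19 with 2 higher. The feedback inhibitors Tnip3 and Tnfaip3 and the cofactor Bcl3 fell 7.63-fold, 3.33-fold and 5.85-fold, and Nfkb1 changed by -0.28 (edgeR adjusted p = 0.000107 with the block and 0.421 without). Myc, which drives growth and division, was higher with iBET, from 18.4 ± 8.28 to 31.3 ± 12.96 CPM, called with the block only (adjusted p = 2.02e-05 with it and 0.0755 without). Cdkn1a, the p53 target that halts the cell cycle, rose from 182 ± 45.3 to 279 ± 63.6 CPM with overlapping groups. Of 20 p53 targets 8 rose and 9 fell, 40% and 45% against 33.5% and 35.2% of all genes.

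Housekeeping groups changed by small amounts. Of 82 tested cytosolic ribosomal protein genes 32 rose and 1 fell (39% and 1.22%), with a median of 0.11. Of 79 nuclear genes for oxidative phosphorylation 34 rose and 6 fell (43% and 7.59%, median 0.13). Over all genes 33.5% rose and 35.2% fell, so the shares that rose were not far from this. Without the block the rises were 21 of 82 and 21 of 79, beside 3449 of all 12465 genes. Both medians stayed above 0 under each scaling of the libraries, at 0.063 and 0.075 with library size only. Mitochondrial ribosomal protein genes had a median below 0 (-0.10), with 33 of 77 lower and 14 higher (42.9% and 18.2%). Their share that fell was not far from the 35.2% of all genes. Proteasome subunits (10 higher and 6 lower of 35), aminoacyl-tRNA synthetases (7 and 7 of 21) and lysosomal genes (21 and 14 of 61) had shares near or below those of all genes, and for the lysosomal genes 8 and 7 were left without the block. Mitf and Tfeb, factors that drive lysosomal genes, fell 2.17-fold and 2.36-fold.

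Promoter sequence was compared between genes that rose and fell, because BET inhibition acts through promoters and enhancers and promoters differ in their content of CpG dinucleotides. RefSeq sequences of 300 bases (250 before and 50 after the start, GRCm38.p6, the start listed first) were matched to 9533 of 11748 tested protein-coding genes (81.1%). For 8 of the 30 largest changes, the 4 largest falls and the 4 largest rises with a sequence free of annotated exons, the 250 bases before the start are printed here from 5′ to 3′ to show how the content of CG differs between them, with each CG in capitals. The genes that fell come first, from chr1:92972869-92973118 (forward strand), chr7:16675706-16675955 (reverse strand), chr5:110603255-110603504 (forward strand) and chr6:137252049-137252298 (forward strand).
Gpr35: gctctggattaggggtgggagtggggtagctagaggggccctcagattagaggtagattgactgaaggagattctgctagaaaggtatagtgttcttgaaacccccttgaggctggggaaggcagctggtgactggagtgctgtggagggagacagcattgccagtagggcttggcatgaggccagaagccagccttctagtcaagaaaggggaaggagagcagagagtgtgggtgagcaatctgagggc
Ceacam15: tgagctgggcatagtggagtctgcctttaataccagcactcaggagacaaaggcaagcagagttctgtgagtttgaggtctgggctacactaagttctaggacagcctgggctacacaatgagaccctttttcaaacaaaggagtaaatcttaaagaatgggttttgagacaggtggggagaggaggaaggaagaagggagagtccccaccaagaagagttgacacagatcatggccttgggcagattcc
Galnt9: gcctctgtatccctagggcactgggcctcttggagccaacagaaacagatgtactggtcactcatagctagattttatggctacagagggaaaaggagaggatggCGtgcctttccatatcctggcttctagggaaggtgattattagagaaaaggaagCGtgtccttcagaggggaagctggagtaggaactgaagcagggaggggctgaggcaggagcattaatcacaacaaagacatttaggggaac
Ptpro: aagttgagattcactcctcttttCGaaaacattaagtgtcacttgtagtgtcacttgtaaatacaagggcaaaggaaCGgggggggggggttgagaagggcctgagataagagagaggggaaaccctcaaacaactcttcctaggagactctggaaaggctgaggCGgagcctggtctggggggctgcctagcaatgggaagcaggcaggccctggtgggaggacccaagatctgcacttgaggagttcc
The genes that rose follow, from chr17:34972157-34972406 (reverse strand), chr17:34959239-34959488 (reverse strand), chr8:85691010-85691259 (reverse strand) and chr2:109917397-109917646 (forward strand).
Hspa1a: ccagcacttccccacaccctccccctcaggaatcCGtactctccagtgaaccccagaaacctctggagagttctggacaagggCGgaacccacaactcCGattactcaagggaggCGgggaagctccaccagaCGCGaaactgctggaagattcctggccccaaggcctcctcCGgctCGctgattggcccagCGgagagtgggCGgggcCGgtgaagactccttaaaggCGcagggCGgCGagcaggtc
Hspa1b: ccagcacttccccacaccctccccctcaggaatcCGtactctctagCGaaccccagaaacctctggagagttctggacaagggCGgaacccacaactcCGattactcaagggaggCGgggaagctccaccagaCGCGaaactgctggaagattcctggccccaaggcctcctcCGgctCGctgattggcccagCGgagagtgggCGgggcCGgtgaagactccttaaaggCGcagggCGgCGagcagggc
Neto2: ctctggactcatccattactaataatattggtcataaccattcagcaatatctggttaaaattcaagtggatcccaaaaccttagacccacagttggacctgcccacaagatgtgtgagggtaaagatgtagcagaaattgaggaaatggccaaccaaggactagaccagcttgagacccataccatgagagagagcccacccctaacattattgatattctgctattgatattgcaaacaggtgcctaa
Lgr4: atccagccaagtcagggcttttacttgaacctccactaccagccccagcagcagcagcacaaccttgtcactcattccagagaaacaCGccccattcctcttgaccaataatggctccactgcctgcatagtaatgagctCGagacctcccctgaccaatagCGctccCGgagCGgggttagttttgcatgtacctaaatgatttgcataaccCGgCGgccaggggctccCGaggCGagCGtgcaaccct
Gpr35, Ceacam15, Galnt9 and Ptpro held 0, 0, 2 and 3 CG in these bases. Hspa1a, Hspa1b and Lgr4 held 14, 15 and 10, and Neto2, which also rose, held 0. Over the 300 bases the ratio of observed to expected CpG was 0.542 for Hspa1a, 0.577 for Hspa1b and 0.711 for Lgr4, below the median of 0.771 of all genes with a sequence, and at most 0.24 for the genes that fell. The windows of Hspa1a and Hspa1b differ at few positions, as the genes are copies of each other.

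Over all genes with a sequence, the ratio of observed to expected CpG went with the direction of change. Of 587 genes with a ratio of 0.2 or less, 15.5% rose and 57.4% fell, and 34.1% fell by at least 2-fold. Of 1251 genes with a ratio over 1.0, 44.3% rose and 25.7% fell, and 3.04% fell by at least 2-fold. The median ratio was 0.771 over all of them, 0.773 for genes at least 2-fold higher and 0.417 for genes at least 2-fold lower. Among genes at 100 CPM or more, 59.2% of those with a ratio of 0.4 or less fell against 24.1% of those over 0.6, and among genes under 10 CPM 52.5% against 35.6%. Of 155 genes with TATAAA or TATATA between 40 and 14 bases before the start on the strand of the gene, 37.4% rose and 35.5% fell, against 34.6% and 35.7% of genes without. At 2-fold or more the shares were 10.3% and 17.4% with these letters, against 4.54% and 9.51% without. Single-exon coding genes, many of them histone genes, rose in 48.0% and fell in 22.2% of 306 cases. Among 210 genes longer than 300 kb, 24.3% rose and 45.7% fell. These shares describe genes that are not independent, and no test was run on them.

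**Figure D5:**
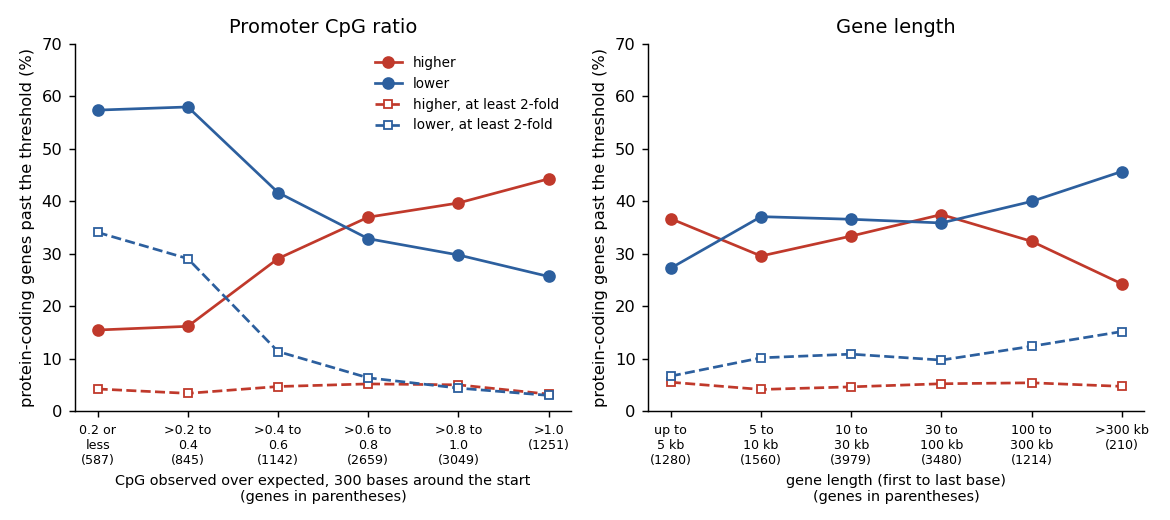
Share of protein-coding genes called higher (red) or lower (blue) with iBET (vertical axes, %) by the ratio of observed to expected CpG in the 300 bases around the start (left) and by gene length (right), with the number of genes in parentheses; filled circles are calls of any size and open squares calls of at least 2-fold. The share of genes that fell is 57.4% in the lowest class of CpG ratio and 25.7% in the highest, and the share that rose is 15.5% and 44.3%.

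The response was compared with that of the same mice under IC by the interaction term of the fit, which subtracts the log2 fold change with Ova from that with IC. It passed for 102 genes, 0.818% of those tested (1395 at an unadjusted p under 0.05), for 5 genes without the mouse block, for 185 by DESeq2 with the block and for 14 to 61 with 1 mouse left out (55, 37, 15, 14 and 61 without mice A to E), so the count rests on the fit and on single mice. Of the 102, 95 were called with Ova, and 63 of these had a smaller effect with IC. The 5 with the smallest adjusted p were Arrdc4, Klf10, Ankrd63, Rps6ka2 and Lrp8. Arrdc4, an arrestin related to Txnip, was at 154 ± 14.9 CPM with DMSO and 263 ± 43.96 CPM with iBET in the Ova libraries and rose by 0.76, against -0.12 with IC (difference -0.88, edgeR adjusted p = 3.36e-05). Klf10, a factor of the TGF-beta response, was not called with Ova (-0.07) and changed by -1.11 with IC (difference -1.04, edgeR adjusted p = 8.73e-05). The log2 fold changes with Ova and with IC were -1.01 and -0.01 for Ankrd63, 0.69 and -0.20 for the kinase gene Rps6ka2, and 1.04 and -0.23 for Lrp8, a receptor of the LDL receptor family. Of the 30 largest changes, those of Ccr2 and Abhd15 passed. Ccr2 was lower by 4.98 with Ova and 3.76 with IC (difference 1.22, edgeR adjusted p = 0.0144), and Abhd15, a lipase-related protein, was higher by 2.62 and 3.59 (difference 0.97, edgeR adjusted p = 0.000442). The others did not pass, among them Tlr13 (0.11), Spi1 (-0.19), Brd2 (-0.04) and Hexim1 (0.08), which does not show that they were equal.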

How the data were processed

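Total RNA of BMDCs was sequenced in 20 libraries (5 mice, A to E, under 4 conditions). The authors deposited a table of counts per gene, made with Trim Galore, HISAT2 and featureCounts on mm10 per the labels. Not given in the sources used here are the versions, the gene annotation, whether strand was used and how multimapping reads were counted. A second deposited table held the same counts divided by 1 size factor per library (normalised signal). Mitochondrially encoded genes were not analysed here.

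Counts were tested with edgeR 4.0.16 (R 4.3.3): filterByExpr on the 4 groups, TMM, glmQLFit and glmQLFTest over all 20 libraries with the mouse as a block, and Benjamini-Hochberg adjustment over the 12465 genes tested. Per the labels the libraries of a mouse share an animal, and their deviations from the group means correlated (mean 0.524 over 30 pairs of 1 mouse, against -0.156 between mice). Libraries of 1 group differed by far more than counting error (chi-square of at least 13.3 per degree of freedom over 20 pairs). On simulated counts for this comparison (12465 genes, 200 changed) the fit recovered 71.6% of changes of 0.5, 92.5% of changes of 1 and 100% of changes of 2 log2 units, and 2.76% of its calls were false. The simulated mouse effects had the form that the block fits, and as many genes rose as fell. In the data 68.7% of genes were called, so these shares need not hold for them.

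Alternatives were no block, DESeq2 1.42.0 with and without the block, surrogate variables (sva 3.50.0), limma 3.58.1 on the deposited size-factor values with a pseudocount of 1, other scalings and filters, a threshold of 1e-05, the 10 Ova libraries alone and each mouse left out. Named genes were the 15 largest rises and falls in 5 of 5 mice at a mean of at least 5 CPM, in each of 82 lists up to 4 members with the largest change and a mean of at least 2 CPM and the 2 members at the highest level, members of short lists, the 5 genes with the smallest interaction p, and a short list that included Il6, Il10, Tnf, Brd2 and Ciita, of which Il10 did not pass the filter. Results for some single genes are not reported here. The comparison and the lists were chosen with earlier results of these data known. Promoters and symbols were from RefSeq (11806 of the genes tested matched directly, 607 by an older symbol and 52 not at all), and gene positions from GENCODE M21, both on GRCm38.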

Additional observations from a re-analysis of the deposited data

Results flagged for a closer look

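In 14 of the 354 groups of 5 libraries that were checked (177 named genes with DMSO and with iBET), 1 library stood far from the other 4. Chance marks about 1 in 20 such groups. The library of mouse A was the one apart in 9 cases. With DMSO it was the highest for Fpr1 (27.6 CPM against 11.2 to 15.9 in the others), Hvcn1 (452 against 235 to 293), Irg1 (29.6 against 11.2 to 15.0) and Slc7a11 (694 against 376 to 466). With iBET it was the highest for Abhd15 (56.6 CPM), Cd180 (1.33) and Hvcn1 (114 against at most 76.4), and the lowest for Brd3 (29.3) and Hexim1 (155 against 185 to 197). Mouse B was the highest with iBET for Ahi1 (32.8) and Thbs1 (a level of 1950 against 654 to 1020), mouse D for Ankrd63 (14.3 against 9.04 to 10.4), mouse C the lowest with DMSO for Samd9l (59.2 against 72.8 to 77.3) and mouse E the lowest with iBET for Polr2a (163 against 506 to 525).

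The effect of iBET differed between IC and Ova for 11 named genes by the interaction term. The difference (IC minus Ova, log2) was 0.97 for Abhd15, 1.00 for Ankrd63, -0.88 for Arrdc4, 0.50 for Blnk, 1.22 for Ccr2, -1.04 for Klf10, -1.26 for Lrp8, 0.42 for Ncf1, -0.89 for Rps6ka2, 0.70 for Tnip3 and -0.50 for Txnrd1. Blnk, Ccr2, Ncf1 and Tnip3 fell with Ova and fell by less with IC, and Abhd15 rose by more.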

How the results depend on the processing

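The numbers of genes higher and lower stayed within 1.5 times those given above under each alternative run except a threshold of 1e-05, which left 1632 and 2036. Leaving out 1 mouse gave 3843 to 4284 higher and 3942 to 4223 lower. At 2-fold or more the counts were 297 and 695 with a minimum mean of 5 CPM, which tests fewer genes. The 102 genes of the interaction became 5 with no replicate block, 185 and 24 by DESeq2 with and without the replicate block, 34 with surrogate variables, 0 at a threshold of 1e-05, and 14 to 61 with 1 mouse left out. The lowest were 15 without mouse C and 14 without mouse D. Added after seeing the data, mice A and B alone gave 0 and mice C, D and E 65, from fewer samples. Without the replicate block 13 named genes were no longer called (Actb, Ccl22, Cd74, Cybb, H2-Aa, H2afy, Irf8, Itgb2, Mcl1, Mki67, Myc, Nfkb1 and Tnf), and no other named gene lost its call for want of the block. With mice A and B alone, and the block in place, Brd3, H2-D1, Hist2h2aa1, Hist2h2aa2 and Pkm lost theirs. So did Actb, Cd74, H2-Aa, H2afy, Itgb2, Mcl1, Mki67 and Tnf, whereas Ccl22, Cybb, Irf8, Myc and Nfkb1 kept theirs. Some of the 13 genes not called without the block also lost their calls in other runs that kept it. H2-Aa, H2afy and Mcl1 did so in the 10 Ova libraries alone, in mice C, D and E and without mouse B. H2afy did so without mouse A, C or D, and H2-Aa without mouse C. With no filter H2afy and Mcl1 lost theirs, and with library size only and in mice C, D and E Cybb did. With surrogate variables in place of the mouse Cd74 and H2-Aa lost theirs. Among genes given as not called, Itgax was called by DESeq2 with the block, with no filter and in mice A and B, B2m with no filter, with surrogate variables, without mouse B and in mice C, D and E, Aff1 with surrogate variables and in mice C, D and E, Cyba in mice C, D and E and without mouse B, Mmp12 with surrogate variables, Slfn2 with surrogate variables and without mouse E, and Rn45s without mouse B.

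Among named genes, directions turned only for some that were not called. Over all genes, 1 was called in the opposite direction in mice A and B and 0 under the other alternatives. With mice A and B alone these were Aff1 (0.12) and Cyba (-0.15), and with mice C, D and E alone Ccl6 (0.047), Nek7 (0.021), Sqstm1 (0.094) and Unc93b1 (0.082). Ccl6 was at 0.089 with surrogate variables. With 1 mouse left out the ranges were -0.054 to 0.022 for Ccl6, -0.016 to 0.19 for Cyba, -0.087 to 0.033 for Sqstm1 and -0.072 to 0.082 for Unc93b1. The cause was not tested. The planned share of mitochondrial RNA could not be computed here. Depth limits genes below about 1 CPM, and the CPM cannot show a change in total RNA per cell.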
